A study of Mus musculus with 25 samples.

Results

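The 7 genes described here encode 3 chains of the complement recognition protein C1q (C1qa, C1qb and C1qc), the components C3 and C4b, and the receptors C3ar1 and C5ar1. They were taken by symbol from a deposited table of 23351 genes, in which all 7 were found. The list was chosen by name, with the Day 5 and Day 15 differences in RPKM from control of these same libraries in view. Those differences are given as a description. Where the fit's calls of these genes are stated, they are no test. The series profiled total RNA of oligodendrocyte precursor cells, the dividing glial cells that give rise to myelin-forming oligodendrocytes. Mouse brain was the source, and laser capture microdissection, in which a laser cuts areas out of a section, was used to take the cells. By the labels 10 libraries are controls, while 8 stand for Day 5 after a white matter stroke (loss of blood supply in myelinated fibre tracts) and 7 for Day 15. Strain, age, sex and any sham procedure are not stated in the labels used here, nor is the way the areas were chosen. The labels do not tie libraries to animals. Libraries of a group may share an animal, p-values are then too small, and they cover no more than the variation among these libraries, part of which may be technical.

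Complement is a cascade of blood and tissue proteins that marks targets for removal. C1q binds the target and starts the classical pathway, C4b and C3 are then cleaved and deposited on the surface, and the small fragments released on the way act on G protein-coupled receptors. The products of C3ar1 and C5ar1 are the receptors for the fragments of C3 and C5, called anaphylatoxins. In the brain, microglia, the resident phagocytes, are the known main source of C1q and carry both receptors, while C3 and C4b can also be made by astrocytes.

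Levels are the RPKM values (reads scaled by gene length and library size) deposited by the authors. Their depth in reads is unknown. Differences between groups are on the log2(RPKM + 1) scale, which understates the change of low genes, and come from one limma fit over the 4319 genes that reached 1 RPKM in at least 7 libraries. A gene was called at a Benjamini-Hochberg adjusted p under 0.05. All 7 members were in the fit. C5ar1 reached 1 RPKM in 0 of 10 controls, C3 in 1, C1qa in 3 and C3ar1 in 4. These genes thus entered the fit only with the stroke libraries counted. Genes at 1 RPKM or more numbered 1306 to 4320 in controls, 2353 to 6592 at Day 5 and 1749 to 5266 at Day 15. The median difference of all genes tested was 0.61 at Day 5 and 0.17 at Day 15 against control, and member values are read beside these. Upper-quartile scaling, scaling to the same sum without the ribosomal RNA precursor Rn45s, and quantile normalization brought the Day 5 median to 0.10, 0.16 and -0.02.

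Markers of the labelled cell and of others were read in the same libraries. The 9 precursor markers summed to 7.44 to 112.3 RPKM in controls, 19.4 to 111 at Day 5 and 14.8 to 283 at Day 15. Of these markers 4 had a group median of at least 1 RPKM in controls, 7 at Day 5 and 5 at Day 15. They did not all move alike. Pdgfra, a defining surface receptor of precursors, had a median of 0.607 RPKM in controls against 4.71 at Day 5 and 0.643 at Day 15. Olig2 had medians of 0.632, 0.404 and 0.151 RPKM in the same order. Cspg4 was listed at 0 in 3 of 10 controls. The 10 markers of myelinating oligodendrocytes summed to 136 to 1324, 88.9 to 1179 and 40.7 to 577 RPKM in the same order. The 10 microglia markers summed to 3.44 to 19.7 RPKM in controls, 14.5 to 232 at Day 5 and 25.0 to 228 at Day 15. Of these markers 2, 6 and 8 had a group median of at least 1 RPKM. Siglech, one of them, was listed at 0 in 3 of 10 controls and in no stroke library. The 10 monocyte and macrophage markers summed to 3.57 to 128, 131 to 2286 and 13.2 to 364 RPKM. Of these 4, 6 and 4 had a group median of at least 1 RPKM. Lyz2 alone had a Day 5 median of 174 RPKM and a highest Day 5 value of 2210, while Mrc1 had a Day 5 median of 0.133. The Day 5 sums lay above every control sum. The 10 astrocyte markers summed to 17.0 to 349, 20.4 to 764 and 23.1 to 329 RPKM, and the 8 neutrophil markers reached at most 9.56 RPKM in sum, with S100a9 at 0 in 9 of 10 controls, 2 of 8 Day 5 and 6 of 7 Day 15 libraries. The part of these cell types in the values below was not tested. In such bulk samples more cells of a type and more RNA per cell cannot be told apart.

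Among the 3 chains of C1q, C1qc was the member that stood highest at Day 5 and C1qb at Day 15, while C1qa stayed low in all groups. C1qc ran from 0.155 to 13.4 RPKM in controls with a median of 2.24, from 2.33 to 442 at Day 5 with a median of 21.8, and from 1.62 to 110 at Day 15 with a median of 9.68. At Day 5, 4 of 8 libraries lay above the highest control and the other 4 overlapped the control range. At Day 15, 2 of 7 libraries lay above the highest control. The Day 5 mean of 77.2 ± 149 RPKM (SD, n = 8) rested on replicate 10, and without it the mean was 25.1. The fitted difference from control was 2.66 (SE 0.77) at Day 5 and 1.73 (SE 0.80) at Day 15.

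C1qb had medians of 2.91 RPKM in controls (0.111 to 20.3), 9.31 at Day 5 (2.23 to 46.2) and 18.1 at Day 15 (5.02 to 107). Only 2 libraries at each stroke day exceeded the highest control, Control replicate 9 at 20.3 RPKM, so the ranges overlapped widely. Its difference from control was 1.45 (SE 0.71) at Day 5 and 2.28 (SE 0.73) at Day 15. C1qa had medians of 0.458 RPKM in controls (0.00657 to 3.65), 2.07 at Day 5 (0.569 to 7.90) and 0.926 at Day 15 (0.0110 to 7.10), with differences of 0.98 (SE 0.48) and 0.41 (SE 0.50). Of its libraries, 3 at Day 5 and 1 at Day 15 lay above the highest control, so its ranges overlapped too.

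The chains assemble into one protein, and their genes C1qb, C1qc and C1qa lie next to each other in the GRCm38.p6 annotation, with no other gene listed between them. Per length, C1qa had the lowest value of the 3 chains in 23 of 25 libraries. The exceptions were a control and a Day 5 library, in which C1qc and C1qb were lowest. Of the summed C1q RPKM of a library, C1qa made up a median of 5.99% (0.0221% to 19.1%), C1qb 42.4% (2.91% to 90.7%) and C1qc 49.2% (8.93% to 96.7%). C1qc was the highest chain in 7 of 10 controls and 5 of 8 Day 5 libraries, and C1qb in 5 of 7 Day 15 libraries. The plot of chain shares shows how widely these proportions ran within each group.

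**Figure D1:**
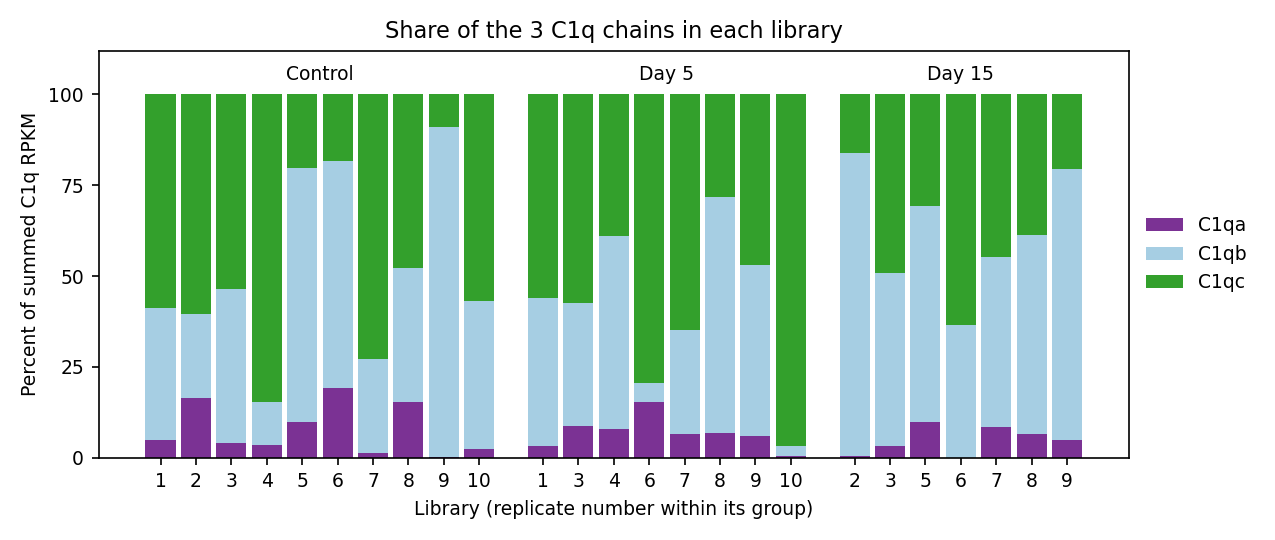
Percent of the summed C1q RPKM held by C1qa, C1qb and C1qc (vertical axis) in each of the 25 libraries (horizontal axis, replicate number within Control, Day 5 and Day 15). C1qa is the smallest part in 23 of 25 libraries, and C1qc makes up 96.7% in Day 5 replicate 10.

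The window from 250 bases before to 50 bases after the start site of C1qc is shown because C1qc had the largest Day 5 difference of the 3 chains. It comes from RefSeq (GRCm38.p6, chr4:136892865-136893164, minus strand) and is written 5′ to 3′, and windows of this kind were found for 5 of the 7 members. Searches were made for 3 motifs on both strands, and matches are in capitals. These were GAGGAA, the core that the myeloid factor PU.1 binds, TGANTCA, the site of AP-1 factors, which reads the same on both strands, and TTGCGNAA, a form of the C/EBP site. GAGGAA lies in 28.3% of 32851 such windows, TGANTCA in 7.81% and TTGCGNAA in 0.798%. C1qc holds GAGGAA on the opposite strand (TTCCTC) at position -193 from the start, and C1qb holds it on the gene's strand at position -30.
C1qc: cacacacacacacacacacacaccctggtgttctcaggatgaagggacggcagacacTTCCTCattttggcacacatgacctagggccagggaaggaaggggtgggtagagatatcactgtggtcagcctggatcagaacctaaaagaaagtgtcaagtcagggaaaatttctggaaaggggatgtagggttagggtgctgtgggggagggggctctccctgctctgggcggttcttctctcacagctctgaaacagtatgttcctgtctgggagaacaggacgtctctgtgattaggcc

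C3, whose cleavage is the step at which the complement pathways meet, was low in controls and at Day 5 and higher in most Day 15 libraries. It ran from 0 to 1.44 RPKM in controls with a median of 0.165, from 0.154 to 2.14 at Day 5 with a median of 1.08, and from 0.901 to 84.4 at Day 15 with a median of 4.23. Above the highest control lay 3 of 8 Day 5 and 5 of 7 Day 15 libraries, and the other 2 Day 15 libraries, at 0.901 and 0.940 RPKM, fell within the control range. The Day 15 mean was 15.6 ± 30.5 RPKM (SD, n = 7), or 4.09 without replicate 2. The difference from control was 0.66 (SE 0.51) at Day 5 and 2.37 (SE 0.53) at Day 15. Without Day 15 replicate 2 the Day 15 difference was 1.76. The C3 window (RefSeq, GRCm38.p6, chr17:57228087-57228386, minus strand) is shown because C3 had the largest Day 15 difference of the 7 members, and holds TTGCGNAA, as TTGCGAAA, at position -45 from the start.
C3: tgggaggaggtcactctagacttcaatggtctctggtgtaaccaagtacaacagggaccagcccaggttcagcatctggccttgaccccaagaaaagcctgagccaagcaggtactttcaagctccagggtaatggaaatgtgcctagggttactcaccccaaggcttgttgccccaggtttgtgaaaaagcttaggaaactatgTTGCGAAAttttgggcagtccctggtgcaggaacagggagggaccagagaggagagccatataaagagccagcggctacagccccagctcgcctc

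C4b, which is deposited on a target after C1q has bound, had similar medians in all groups. The medians were 2.47 RPKM in controls (0.839 to 16.5), 2.73 at Day 5 (0.0814 to 17.3) and 2.91 at Day 15 (0.856 to 648). A single Day 15 library, replicate 3, held the 648 RPKM, and the next highest was 22.1. The Day 15 mean was 98.9 ± 242 RPKM (SD, n = 7) with it and 7.42 without it, against 5.34 ± 5.58 (SD, n = 10) in controls. The difference from control was -0.19 (SE 0.78) at Day 5 and 1.18 (SE 0.81) at Day 15, and 0.18 at Day 15 without that library. The paralog C4a stayed lower than C4b in 24 of 25 libraries. The longest annotated transcripts of both (GENCODE M21) share 16.5% of their windows of 100 bases, the read length, so reads from those parts can belong to either gene and C4b is uncertain to that extent.

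The receptor C3ar1 stood highest above control at Day 5. It ran from 0.0497 to 7.25 RPKM in controls with a median of 0.561, from 1.89 to 55.7 at Day 5 with a median of 18.6, and from 0.217 to 495 at Day 15 with a median of 6.26. Above the highest control lay 6 of 8 Day 5 libraries and 3 of 7 Day 15 libraries. The difference from control was 2.97 (SE 0.78) at Day 5 and 2.17 (SE 0.81) at Day 15. The Day 15 mean of 76.2 ± 185 RPKM (SD, n = 7) fell to 6.43 without replicate 2, whose value was 495, and the difference to 1.23.

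C5ar1, the receptor for the fragment of C5, had the most Day 5 libraries above the control range of the 7 genes. Controls held 0 to 0.843 RPKM with a median of 0.0272, and 2 of 10 were listed at 0. Day 5 libraries held 0.687 to 10.1 RPKM with a median of 4.71, and 7 of 8 lay above the highest control. Day 15 libraries held 0.00115 to 97.8 RPKM with a median of 0.248, 3 of 7 above the highest control. The difference from control was 2.13 (SE 0.59) at Day 5 and 1.39 (SE 0.61) at Day 15, or 0.54 at Day 15 without replicate 3. C3ar1 exceeded C5ar1 per length in 23 of 25 libraries, all 10 controls among them. Gpr77, the second receptor of the C5 fragment, reached 1 RPKM in 2 Day 5 libraries and in no other library and was not in the fit.

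The windows of both receptors (RefSeq, GRCm38.p6, chr6:122856108-122856407 for C3ar1 and chr7:16259289-16259588 for C5ar1, both on the minus strand) are shown beside the receptors' values. C3ar1 holds TGANTCA, as TGACTCA, at position -22 from the start, and none of the 3 motifs is in the window of C5ar1.
C3ar1: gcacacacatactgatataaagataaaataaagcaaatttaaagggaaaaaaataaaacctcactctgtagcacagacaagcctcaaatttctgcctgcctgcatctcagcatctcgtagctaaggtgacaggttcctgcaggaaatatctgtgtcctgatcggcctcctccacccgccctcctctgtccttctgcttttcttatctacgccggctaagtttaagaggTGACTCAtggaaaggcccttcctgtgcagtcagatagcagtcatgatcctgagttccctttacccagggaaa
C5ar1: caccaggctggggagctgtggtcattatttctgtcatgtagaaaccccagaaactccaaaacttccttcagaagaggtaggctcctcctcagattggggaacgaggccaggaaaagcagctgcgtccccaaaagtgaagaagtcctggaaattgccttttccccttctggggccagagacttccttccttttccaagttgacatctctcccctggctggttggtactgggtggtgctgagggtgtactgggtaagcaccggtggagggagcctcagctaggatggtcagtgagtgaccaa

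**Figure D2:**
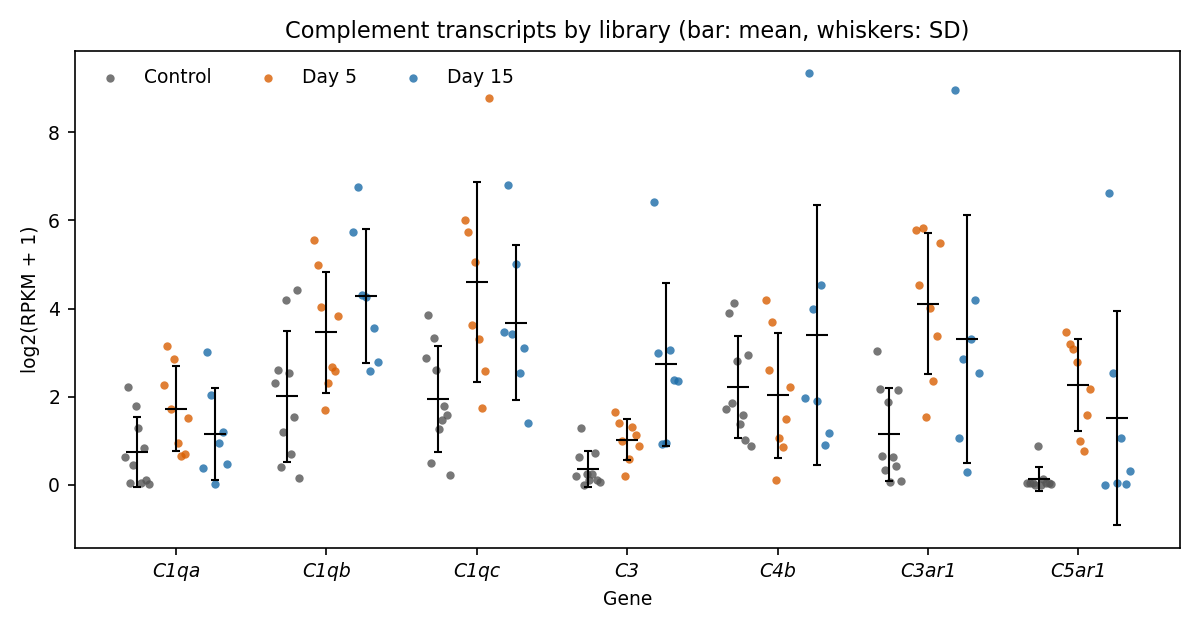
Level of each of the 7 genes as log2(RPKM + 1) (vertical axis), 1 point per library, for 10 Control, 8 Day 5 and 7 Day 15 libraries, with the group mean (bar) and SD (whiskers). C5ar1 lies near 0 in 9 of 10 controls, and single Day 15 libraries stand far above the others in C3, C4b, C3ar1 and C5ar1.

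The order of the 7 genes by median RPKM changed between groups. In controls C1qb (2.91), C4b (2.47) and C1qc (2.24) came first, with ranges that overlapped almost entirely, and C5ar1 (0.0272) last. At Day 5 the order was C1qc (21.8), C3ar1 (18.6), C1qb (9.31), C5ar1 (4.71), C4b (2.73), C1qa (2.07) and C3 (1.08). At Day 15 it was C1qb (18.1), C1qc (9.68), C3ar1 (6.26), C3 (4.23), C4b (2.91), C1qa (0.926) and C5ar1 (0.248). Neighbours in each order had overlapping ranges. C5ar1 came last in controls and at Day 15 but in place 4 at Day 5, and C3 came last at Day 5 and in place 4 at Day 15. Members at 1 RPKM or more in a library numbered 0 to 5 in controls, 4 to 7 at Day 5 and 3 to 7 at Day 15. All 7 reached it in 2 Day 5 libraries and 1 Day 15 library.

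By the fit's threshold, 3 of the 7 members were called against control at Day 5, where 6.02% of all genes tested were called as higher. These were C1qc, C3ar1 and C5ar1. At Day 15 only C3 was called, where 0.0926% of genes were. The members were chosen with these contrasts known, and C5ar1, C3, C1qa and C3ar1 passed the filter only with the stroke libraries counted. The counts are therefore no test and nothing is read from them. Both contrasts share the 10 controls. The median difference over the 7 members was 1.45 at Day 5 with 6 members above 0, and 1.73 at Day 15 with all 7 above 0, beside medians of 0.61 and 0.17 over all genes. No member had every stroke library above every control, which 0.533% of genes had at Day 5 and 0.0695% at Day 15. With the number of genes at 1 RPKM or more as a covariate, the Day 5 differences were 1.32 for C1qc, 2.29 for C3ar1 and 0.96 for C5ar1, and the Day 15 difference of C3 was 2.36. Under upper-quartile, sum and quantile scaling the Day 5 differences were 1.87, 2.01 and 1.85 for C1qc, 2.29, 2.44 and 2.32 for C3ar1 and 1.65, 1.86 and 1.49 for C5ar1. On leaving out 1 library at a time the Day 5 difference ran from 2.06 to 3.07 for C1qc, from 2.73 to 3.34 for C3ar1 and from 1.96 to 2.34 for C5ar1, and the Day 15 difference of C3 from 1.76 to 2.67.

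**Figure D3:**
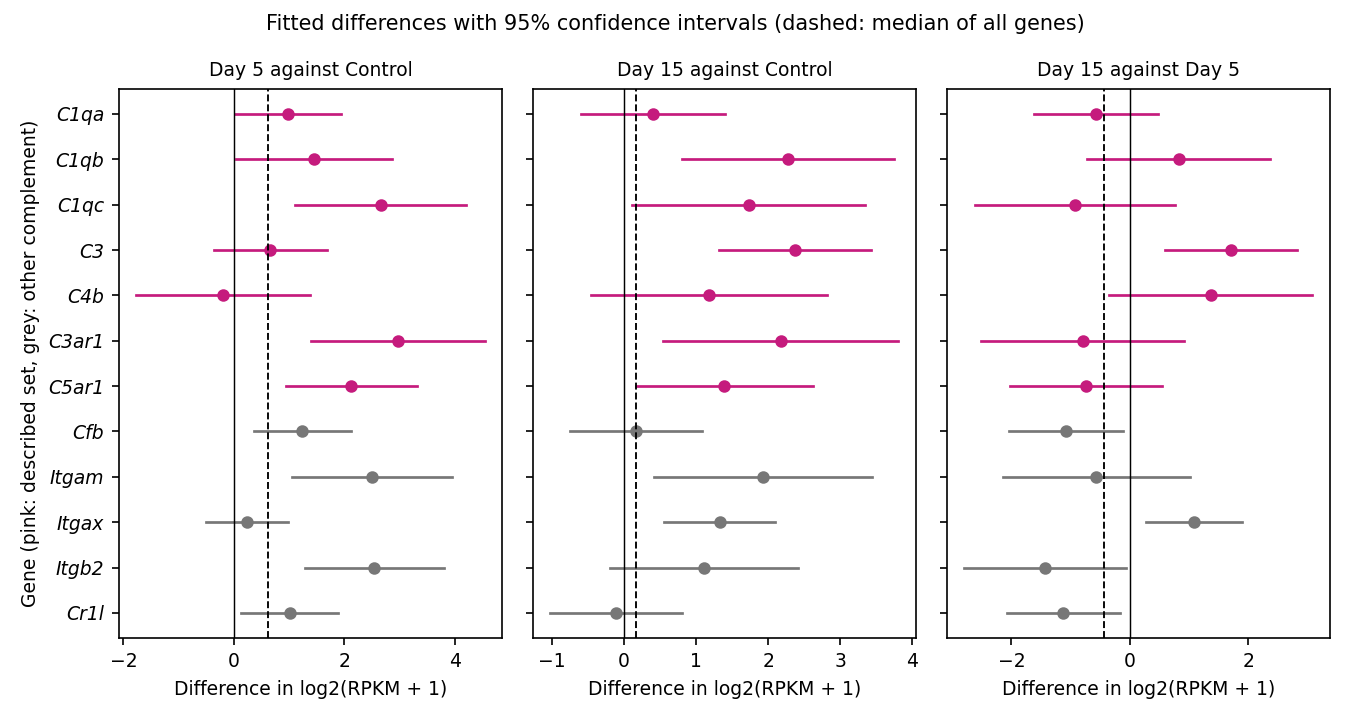
Fitted difference in log2(RPKM + 1) with its 95% confidence interval (horizontal axis) for the 7 described genes (pink) and 5 other complement genes (grey) in 3 comparisons; the dashed line is the median of all 4319 genes tested. At Day 5 against control C3ar1 has the largest difference of the genes shown, at 2.97, and in Day 15 against Day 5 C3 has, at 1.71.

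The difference between Day 15 and Day 5 is that between the differences from control already given, so it too is a description for these genes, with no test. No gene of the 4319 was called in it (0%), the 7 members included, while limma gave 633 genes (14.7%) an unadjusted p under 0.05. C3 was 1.71 above its Day 5 level (SE 0.55, 95% confidence interval 0.60 to 2.82), and 1.10 without Day 15 replicate 2. C4b had 1.37 (-0.35 to 3.09) and C1qb 0.83 (-0.72 to 2.37). Without Day 15 replicate 3 these were 0.38 and 0.41. C1qc had -0.93 (-2.62 to 0.77), C3ar1 -0.80 (-2.51 to 0.92), C5ar1 -0.74 (-2.03 to 0.55) and C1qa -0.57 (-1.62 to 0.47). These also moved with single libraries. On leaving out 1 library the value ran from -1.45 to -0.33 for C1qc, from -1.74 to -0.29 for C3ar1, from -1.59 to -0.49 for C5ar1 and from -0.89 to -0.37 for C1qa. The lowest values came without Day 15 replicate 2 for C3ar1 and without Day 15 replicate 3 for the other 3. The highest came without Day 5 replicate 10 for C1qc, Day 15 replicate 6 for C3ar1, Day 15 replicate 2 for C5ar1 and Day 5 replicate 3 for C1qa. The intervals do not show equal levels at both days. The median of all genes in this contrast was -0.44.

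The high values at Day 15 came from 2 libraries that differed from each other. Replicate 2 held the highest Day 15 value of C3 (84.4 RPKM) and C3ar1 (495 RPKM), with C5ar1 at 0.00115 and C4b at 2.91 RPKM. Replicate 3 held the highest Day 15 value of C4b (648 RPKM), C1qc (110 RPKM), C1qb (107 RPKM), C5ar1 (97.8 RPKM) and C1qa (7.10 RPKM), with C3ar1 at 1.07 RPKM. The receptors were thus high in different libraries. Genes at 1 RPKM or more numbered 2809 and 4079 in these libraries. Without both, chosen after their values were seen, the Day 15 differences from control were 1.58 for C3, 1.497 for C3ar1, 1.49 for C1qb, 1.15 for C1qc, 0.67 for C5ar1, 0.27 for C4b and 0.19 for C1qa, and no member was called.

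**Figure D4:**
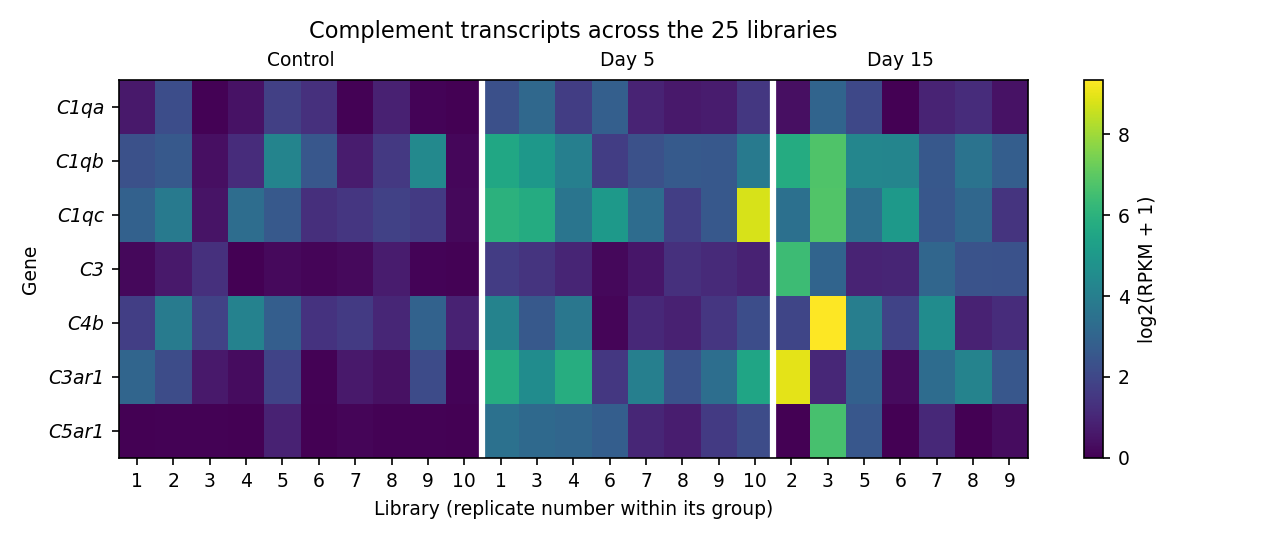
Level of the 7 genes (rows) in the 25 libraries (columns, replicate number within Control, Day 5 and Day 15) as log2(RPKM + 1), from 0 (dark) upward (bright). C4b at 648 RPKM in Day 15 replicate 3 and C3ar1 at 495 RPKM in Day 15 replicate 2 are the brightest squares, followed by C1qc at 442 RPKM in Day 5 replicate 10.

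How the members varied together within groups was tested on their deviations from the group means. The choice of genes had the group differences in view, and single very high libraries enter both those differences and the deviations. The permutation p-values below are thus not independent of the choice and are given as a description. Of 21 pairs over 25 libraries, 5 had a Benjamini-Hochberg adjusted p under 0.05 for both Pearson's r and Spearman's rho, from permutation tests with 100000 resamples within groups. The share of such pairs among all genes was not computed, so the count is not read as particular to complement. C4b and C5ar1 had r = 0.827 (permutation p = 0.00081, adjusted p = 0.00851) and rho = 0.624 (permutation p = 0.00463, adjusted p = 0.0324). Without the 2 libraries farthest from the median of C4b, Day 15 replicate 3 and Day 5 replicate 1, their r was 0.584. In each such check the 2 libraries were picked by the gene named first, so extremes of the second gene can remain. C1qa and C5ar1 had r = 0.729 (permutation p = 3e-05, adjusted p = 0.00063) and rho = 0.685 (permutation p = 0.00054, adjusted p = 0.0113), and r = 0.743 without 2 such libraries. C5ar1 reached 1 RPKM in 0 of 10 controls, so in both pairs its deviations lay mainly in the stroke libraries. The other 3 pairs were C1qb with C4b (r = 0.570, rho = 0.508), C1qa with C1qc (r = 0.554, rho = 0.562) and C1qb with C1qc (r = 0.540, rho = 0.593). Without 2 such libraries their r was 0.450, 0.4001 and 0.521. C1qa with C1qb did not pass for rho (r = 0.481, adjusted p = 0.0391; rho = 0.475, permutation adjusted p = 0.0720).

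The number of genes a library held at 1 RPKM or more moved with most members in the same way. Its r with the deviations was 0.692 for C1qa, 0.604 for C1qb, 0.582 for C4b, 0.571 for C5ar1, 0.527 for C1qc, 0.252 for C3ar1 and 0.0262 for C3. Once that number had been taken out of both, r was 0.741 for C4b with C5ar1 and 0.563 for C1qa with C5ar1. For the 3 other pairs it was 0.337, 0.309 and 0.328 in the order above. C3 and C3ar1 had r = 0.681 (permutation p = 0.0186, adjusted p = 0.0390) and rho = 0.354 (permutation adjusted p = 0.186). Without Day 15 replicates 2 and 5, the farthest for C3, their r was 0.404. C3ar1 and C5ar1, the receptors, had r = -0.177 and rho = 0.112 (permutation adjusted p = 0.773 and 0.690).

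The genes most like each member were sought by the Pearson correlation of the same deviations over 25 libraries among the genes tested, and are given as a description. For C1qa they were Endod1 (0.837), Braf (0.821) and Abhd4 (0.810), for C1qb Ckb (0.790) and Trio (0.753), and for C1qc A2m (0.775), Zfp521 (0.748) and Cfl1 (0.732). For C3 they were Pvt1 (0.869), Tbcel (0.848) and Selplg (0.813), and Spearman's rho for Pvt1 was 0.492. For C4b they were Epb4.1 (0.832), C5ar1 (0.827) and Gcnt2 (0.821), for C3ar1 Mef2c (0.827), Tmod3 (0.813) and Idh3g (0.788), and for C5ar1 Arap1 (0.874), Tmem106a (0.864) and Stk38 (0.864). No C1q chain was among the genes most like another chain. The libraries, their number of detected genes and a few very high values are shared by all these points.

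Of 47 other complement genes in the table, from a list of 52 symbols, 9 passed the filter on low values and 38 did not. The proteases C1ra and C1s, which C1q activates, stayed at or under 0.489 and 1.06 RPKM in every library, and Hc, which encodes C5, at or under 0.892. At Day 5, 2 of 9 tested were called and both rose, beside the 6.02% of all genes called as higher. At Day 15 against control and against Day 5, 0 of 9 were called. The 9 had a median difference of 1.01 at Day 5 and 0.95 at Day 15 against control. With limma, 5 of the 9 had an unadjusted p under 0.05 at Day 5, 3 at Day 15 and 4 between the stroke days, beside 26%, 8.87% and 14.7% of all genes. These counts are a description, since some of the 9 passed the filter mainly through 1 group. Of the libraries at 1 RPKM or more, 6 of 8 were from Day 15 for Itgax, 5 of 8 from Day 5 for Cfb and 4 of 7 from Day 5 for Cr1l, so their values below are conditioned on being high there.

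The 2 that rose encode the chains of complement receptor 3, which binds a fragment of deposited C3. Itgb2, the beta chain, ran from 0.00500 to 7.37 RPKM in controls with a median of 0.573 and from 2.16 to 69.4 at Day 5 with a median of 8.05. It rose by 2.55 (SE 0.62, limma adjusted p = 0.0130). Itgam, the alpha chain and a marker of myeloid cells, ran from 0.0753 to 101 RPKM with a median of 0.645 in controls and from 6.00 to 84.3 with a median of 15.4 at Day 5, and rose by 2.50 (SE 0.72, limma adjusted p = 0.0326). In every Day 5 library both were at 1 RPKM or more, against 4 of 10 controls for Itgb2 and 3 of 10 for Itgam. Above the highest control lay 4 of 8 Day 5 libraries for Itgb2. For Itgam it was 0 of 8, with Control replicate 1 at 101 RPKM and the next control at 7.62. The list was chosen with earlier results of these data known, so these p-values are a description. Neither was called under upper-quartile, sum or quantile scaling (limma adjusted p from 0.0537 to 0.239) or in the fit that held the count of detected genes as a covariate (limma adjusted p = 0.432 for both). The call of Itgam was lost on leaving out Day 5 replicate 1 or 3, or any of Control replicates 3, 4, 6, 7, 8, 9 and 10 (limma adjusted p from 0.0524 to 0.0896), and Itgb2 was called in all 25 such fits. Of the marker sums given above, those of monocytes and macrophages lay above every control sum in all Day 5 libraries. Markers in that list were not alike. For Cd68 8 of 8 Day 5 libraries lay above the highest control, for Lyz2 7, and for Ccr2 and Mrc1 0. The microglia sums of controls and Day 5 overlapped. At Day 15 all microglia sums (25.0 RPKM or more) lay above every control sum (at most 19.7). The part of these cells in the rises of Itgb2 and Itgam was not tested.

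None of the other tested genes passed. Cfb, the protease of the alternative pathway, had 1.24 at Day 5 (limma adjusted p = 0.0681) and -1.08 at Day 15 against Day 5 (limma adjusted p = 0.282). Itgax, the alpha chain of complement receptor 4, had 0.24 at Day 5, 1.33 at Day 15 (limma adjusted p = 0.137) and 1.09 between the stroke days (limma adjusted p = 0.246). It reached 1 RPKM in 1 of 10 controls, 1 of 8 Day 5 and 6 of 7 Day 15 libraries. Cr1l, a membrane regulator of C3 deposition, had 1.01 at Day 5 and -1.12 at Day 15 against Day 5 (limma adjusted p = 0.134 and 0.273).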

How the data were processed

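The authors deposited 1 RPKM column for each of 25 libraries. The submitters' processing notes name genome build mm9 and the tools HTSeq, STAR (2.1.4a) and CASAVA (1.8.3). A Nugen kit amplified the cDNA, per the labels' protocols, and paired ends of 100 bases were read. The reads and gene lengths that RPKM was scaled to, and the strand setting, are not given in the sources used. Values did not step in whole reads, so read depth could not be derived, and intervals for counting error are left out. No column was left unused.

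Labels gave the groups and replicate numbers. The 4319 of 23351 genes that 7 or more libraries held at 1 RPKM or higher were taken as log2(RPKM + 1) and fitted over all 3 groups with limma 3.58.1 in R 4.3.3 (intensity trend, robust variance, two-sided, Benjamini-Hochberg adjustment). The fit was tested on simulated data. Correlations used permutation tests in Python 3.11.15. Members and lists were chosen with earlier results of these data known. The text names the 7 members, other complement genes that were called or had the 3 smallest p of a comparison, and the 3 genes most like each member, without predicted models. Of these, 2 genes are not reported here. C1ra, C1s, Hc, Gpr77 and C4a were added after their values were seen. Same-numbered libraries of different groups had a median correlation of deviations of 0.0136, against 0.00122 for others, so the numbers were not taken as pairs. Alternatives were another pseudocount, 2 other filters, 3 scalings, a block, 2 covariates, other variance settings and leaving out libraries.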

Additional observations from a re-analysis of the deposited data

Results flagged for a closer look

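Of 21 groups of values (7 genes in 3 groups), 9 held a highest library whose gap to the next exceeded Dixon's 95% limit on the RPKM scale. By chance that limit sets apart about 1 in 20 where values are normally distributed. The RPKM values here were skewed upward, so the 9 are not judged against that rate. On RPKM, at Day 15, these were replicate 2 for C3 (84.4 RPKM) and C3ar1 (494.7 RPKM), and replicate 3 for C4b (648.1 RPKM), C1qc (110.3 RPKM) and C5ar1 (97.8 RPKM). At Day 5 it was replicate 10 for C1qc (441.7 RPKM). In controls they were replicate 3 for C3 (1.44 RPKM), replicate 1 for C3ar1 (7.25 RPKM) and replicate 5 for C5ar1 (0.843 RPKM). On log2(RPKM + 1), 4 of the 21 held such a library, namely Day 15 replicate 2 for C3, Day 15 replicate 3 for C4b and C5ar1, and Control replicate 5 for C5ar1. The cause was not tested.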

How the results depend on the processing

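Called genes at Day 5 against control numbered 261, and 553 with a pseudocount of 0.1, 24 without the filter, 119 at a mean RPKM of at least 5, 22 with upper-quartile, 36 with sum and 20 with quantile scaling, 0 with detected genes as a covariate, 398 with the number range (replicates 1 to 6 or 7 to 10) and 96 to 418 without 1 library. As deposited 260 were higher and 1 lower, and under the scalings 18 and 4, 31 and 5, and 14 and 6. As a description, of 7 members 3 were called, and 0 without the filter, with each of the 3 scalings and with detected genes as a covariate, and 1 to 3 without 1 library. Of the other complement genes 2 were called, 0 in those same 5 settings and 1 to 3 without 1 library. At Day 15 against control 4 genes were called, and 38 with a pseudocount of 0.1, 0 without the filter, 11 at a mean RPKM of at least 5, 9 under upper-quartile scaling, 1 with detected genes as a covariate, 2 with only the compared groups, 8 with ordinary variance, 0 without Day 15 replicates 2 and 3 together and 0 to 6 without 1 library. The single member called, C3, was not called (0 members) without the filter, under sum scaling or with detected genes as a covariate. It was also not called with only the compared groups or without Day 15 replicates 2 and 3. At a mean RPKM of at least 5 it was not tested, and 0 members were called. Without 1 library 0 or 1 member was called, and C3 was called in 4 of 25 such fits. Between the stroke days 0 genes were called, with 0 to 8 without 1 library (8 without Day 15 replicate 5), and 0 members in every setting run.

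With the replicate block, 499 genes were called at Day 5, the 3 members among them, with 3 other complement genes, and at Day 15 4 genes and 0 members, since C3 was not called. Of the 20 same-numbered pairs the lowest correlation was -0.0573, and 2 libraries correlated best with one of their own number. The median was low for same-numbered and for other pairs alike (0.0136 and 0.00122). Such low correlations cannot decide whether the numbers pair the samples.

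Signs changed for C4b at Day 5 (-0.50 to 0.0825 without 1 library, with 0.0825 without Day 5 replicate 6 and 0.0211 without Control replicate 4) and, between the stroke days, with detected genes as a covariate for C1qa (0.0792), C1qc (0.0156) and C5ar1 (0.0876) and without Day 5 replicate 4 and Day 15 replicates 5 and 6 for C3ar1 (0.143). The cause was not tested. With depth unknown, values near 0 can be missing by chance.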
